A study of Homo sapiens with 49 samples.

Results

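T-47D-only distal H3K4me1 regions were the peaks of vehicle-treated T-47D cells that carried H3K4me1 in this line alone and lay away from H3K4me3. A member was a peak of the T-47D H3K4me1 DMSO list, on chromosomes 1 to 22 and X, that overlapped by at least 1 bp neither Ishikawa H3K4me1 list and none of the 4 H3K4me3 lists of the 2 lines. Members were thus chosen by measured peak calls, so the absence of these marks is no result. Of all 6406 peaks, 27.3% and 26.4% overlapped the Ishikawa H3K4me1 DMSO and E2 lists, 16.7% and 9.01% the T-47D H3K4me3 DMSO and E2 lists, and 12.9% and 14.8% the Ishikawa H3K4me3 DMSO and E2 lists. The rule kept 3821 of 6406 peaks, or 59.6%. Of the rest, 844 peaks (13.2%) were distal and shared with Ishikawa, and 1741 (27.2%) overlapped H3K4me3. The same rule applied to the Ishikawa H3K4me1 DMSO list gave 16543 Ishikawa-only distal regions.

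T-47D is a line of human breast ductal carcinoma that expresses the estrogen and progesterone receptors, and Ishikawa is a line of human endometrial adenocarcinoma. Cells kept in hormone-depleted medium received DMSO, the vehicle, or 10 nM 17β-estradiol (E2), for 1 h before ChIP-seq of proteins and for 8 h before ChIP-seq of histone marks. SIN3A was profiled in Stripped Media and in Full Media. RNA polymerase II (RNAPII), profiled in T-47D only, had 2 libraries for each treatment, and every other group was 1 library. Those groups therefore have no replicate check, and their intervals (exact Clopper-Pearson, 95%) cover counting error only. Each line is a single cultured population, and a peak does not tell a mark carried by fewer cells from less of the mark in each cell.

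H3K4me1 is laid down by the MLL3 and MLL4 methyltransferases at enhancers, including enhancers that are primed but not yet active, whereas H3K4me3 marks promoters. Enhancers differ more between cell types than promoters do, because they are opened by factors of the cell's own lineage. In luminal breast cells these include FOXA1, GATA3, the TFAP2 factors and the estrogen receptor. JUN is a subunit of AP-1, which binds TGANTCA, and RNAPII is often found at active enhancers, where it makes short unstable transcripts.

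Sequence windows of 300 bases around the H3K4me1 summit are shown for 5 members that the results turn on, on the plus strand of GRCh37. The GREB1 and SIAH2 members were found in both RNAPII E2 lists and neither RNAPII DMSO list, the GSE1 member was the widest and among those with the most factors, the IRF2BP2 member had the highest fold enrichment and the ISYNA1 member had the strongest JUN peaks. Each is named for the protein-coding gene with the nearest start site. Capitals mark matches on either strand to any of 8 short motifs. That of AP-1 was TGANTCA, as above. Forkhead factors such as FOXA1 were searched for as TGTTTAC, the standard form of the site that these factors bind, and as a variant of it written TATTTAC. For GATA factors, the letters searched were AGATAA, which is the usual core of their sites, together with the variant of that core written TGATAA. TFAP2 was searched for as GCCNNNGGC and a whole estrogen response element as GGTCANNNTGACC. A single nuclear receptor element, whose last letters can overlap the start of the whole one, was searched for as AGGTCA. The E-box of MYC and MAX was CACGTG, and the core of the sites that factors of the ETS family bind was CCGGAA. The windows lie at chr2:11701813-11702112, chr3:150454505-150454804, chr16:85410422-85410721, chr1:234774163-234774462 and chr19:18558236-18558535, in this order.
GREB1: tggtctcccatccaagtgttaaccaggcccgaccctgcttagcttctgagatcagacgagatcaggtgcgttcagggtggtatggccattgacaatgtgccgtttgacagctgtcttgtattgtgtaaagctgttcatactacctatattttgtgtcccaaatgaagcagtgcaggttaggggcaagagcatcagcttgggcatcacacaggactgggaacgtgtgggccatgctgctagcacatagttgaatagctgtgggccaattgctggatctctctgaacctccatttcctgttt
SIAH2: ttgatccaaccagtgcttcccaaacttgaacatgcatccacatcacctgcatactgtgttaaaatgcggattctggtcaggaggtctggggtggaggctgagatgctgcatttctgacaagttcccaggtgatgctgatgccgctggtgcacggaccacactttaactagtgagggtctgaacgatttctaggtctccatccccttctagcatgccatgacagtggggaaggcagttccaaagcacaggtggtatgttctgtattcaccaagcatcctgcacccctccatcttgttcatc
GSE1: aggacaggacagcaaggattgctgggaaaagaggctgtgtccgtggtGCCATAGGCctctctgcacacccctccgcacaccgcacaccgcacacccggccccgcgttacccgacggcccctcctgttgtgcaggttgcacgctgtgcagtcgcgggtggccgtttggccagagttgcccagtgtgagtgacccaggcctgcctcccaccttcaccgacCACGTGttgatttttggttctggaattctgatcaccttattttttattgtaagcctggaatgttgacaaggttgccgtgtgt
IRF2BP2: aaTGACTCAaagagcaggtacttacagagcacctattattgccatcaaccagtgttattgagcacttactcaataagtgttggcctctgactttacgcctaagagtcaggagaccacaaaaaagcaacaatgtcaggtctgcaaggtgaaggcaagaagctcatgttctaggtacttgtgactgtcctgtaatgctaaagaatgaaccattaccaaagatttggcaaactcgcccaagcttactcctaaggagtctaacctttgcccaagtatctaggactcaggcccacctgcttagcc
ISYNA1: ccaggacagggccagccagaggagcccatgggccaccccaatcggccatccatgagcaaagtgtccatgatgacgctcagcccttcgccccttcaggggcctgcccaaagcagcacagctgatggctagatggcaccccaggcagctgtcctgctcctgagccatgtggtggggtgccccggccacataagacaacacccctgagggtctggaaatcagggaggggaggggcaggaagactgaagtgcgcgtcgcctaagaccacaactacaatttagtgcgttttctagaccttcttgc
The GSE1 window held a TFAP2 match (GCCATAGGC) and an E-box (CACGTG), and the IRF2BP2 window an AP-1 match (TGACTCA). The other windows held no match to these letters. An annotated copy of the 5S rRNA gene, which is repeated in the genome, starts 58 bp from the GREB1 summit.

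Over all members, GATA letters were in 18.7% of the 300-base windows (16.9% of all 6406 T-47D H3K4me1 DMSO windows), forkhead letters in 6.12% (5.26%), AP-1 in 9.0% (9.41%), TFAP2 in 13.2% (14.7%), the E-box in 7.64% (8.59%) ETS in 2.85% (3.45%) and the single receptor element in 23.1% (24.0%). A whole estrogen response element was in 0.0523% of member windows, against 0.0781% of all windows. The Ishikawa-only windows held AP-1 in 12.8%, forkhead in 6.43% and GATA in 20.5%. The forkhead and GATA shares of members were thus a little above those of the whole T-47D list and a little below those of the Ishikawa-only regions. GC content averaged 52.1% in member windows, 53.2% over the whole list and 50.1% in Ishikawa-only windows.

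The members were narrow, modestly enriched peaks. Fold enrichment, the ratio of ChIP pileup to local background at the summit, had a median of 7.05 (range 3.14 to 14.9), and width a median of 221 bp (166 to 1505 bp). Together they covered 981.6 kb. Summit pileups were solved as whole numbers from the deposited fold enrichment and p-value. The solutions matched the deposited −log10 p-value within 0.001 for 100% of the peaks. Members had a median pileup of 27 tags (13 to 144) over a median local background of 3.01 tags. Members close to the limit of the rule were common. A peak that would have excluded them lay within 100 bp of 108 members (2.83%) and within 1000 bp of 1140 (29.8%), while 1370 (35.9%) were over 10 kb from any. Just inside the limit, the 10 members nearest to an excluding peak had a median fold enrichment of 6.39, and just outside it, the 10 peaks excluded by the smallest overlap had one of 6.71.

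Some features of the libraries bear on what follows. The T-47D lists of LSD1, MAX, MYC, RARA, TAF1 and SIN3A held from 37 to 5643 peaks, against 24883 and 28702 for JUN and 21287 to 46280 for RNAPII, so that absence from a short list says little. In the T-47D libraries labelled JUN, the AP-1 letters were in 9.10% of 300-base summit windows away from H3K4me3 under DMSO (10388 peaks) and 5.96% under E2 (7633 peaks), close to the 9.0% of member windows, while Ishikawa JUN peaks held them in 32.9% (1338 peaks) and 32.5% (6156 peaks). Of all T-47D JUN DMSO peaks, 92.6% overlapped a T-47D RNAPII list, as did 49.2% of the Ishikawa JUN DMSO peaks. Around the 500 strongest summits away from H3K4me3 the shares were 13.8% (95% CI 10.9 to 17.1) and 7.2% in T-47D under DMSO and E2, and 35.8% and 42% in Ishikawa. GC content differed between these sets, at 58.2% and 63.2% over the T-47D windows and 46.7% and 50.8% over the Ishikawa windows, and its part was not tested. The AP-1 content of the T-47D JUN lists was thus low for their label, and every result on JUN given here rests on them. The share of members with any factor is also given without them. Finally, the 2 RNAPII libraries of replicate number 1 gave longer lists (39368 and 46280 peaks) than those of number 2 (21287 and 23431).

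The line itself was checked through genes that mark cell types. A gene was counted when a member lay within 100 kb of a start site, which held for 24.1% of 19748 protein-coding genes. Of 30 luminal breast genes, 24 (80.0%) had a member, as did 2 of 20 endometrial and Mullerian genes (10.0%), 9 of 20 basal and myoepithelial genes (45.0%) and 5 of 20 blood genes (25%). For Ishikawa-only distal regions, which lay near 54.0% of all protein-coding genes, the same lists gave 60%, 35%, 80.0% and 45.0%. Near members, the luminal and basal shares thus lay above the background, the endometrial share below it and the blood share close to it. For Ishikawa-only regions the luminal and basal shares also lay above their background and the endometrial share below it. A low endometrial share was thus not particular to T-47D. Among basal genes, KRT14, KRT16 and KRT17 had 13, 10 and 9 members in the type I keratin cluster on chromosome 17, which also holds the luminal KRT19 with 11. KRT5, KRT6A, KRT6B, TP63 and VIM had 0. Of the endometrial genes only MSX2, with 4 members, and LHX1, with 1, were near any, and PAX8 had 0 beside 31 Ishikawa-only regions. The lists were chosen with results of these data known, and the counts are descriptions.

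**Figure D1:**
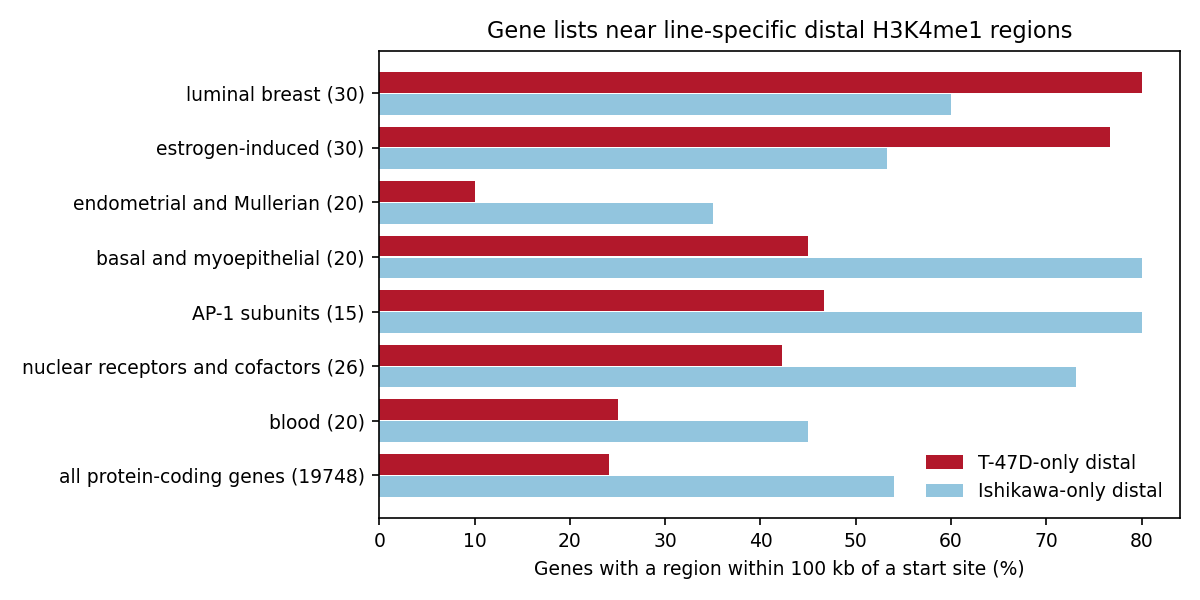
Share of the genes of each list (number of genes in brackets) with at least 1 region within 100 kb of a start site, for T-47D-only (red) and Ishikawa-only (blue) distal H3K4me1 regions. Luminal breast genes reach 80.0% for the members against 24.1% of all protein-coding genes, and endometrial genes 10.0%.

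Luminal transcription factors and receptors had several members each. EHF, an epithelial ETS factor, had 12, KRT19 had 11, GRHL2, which maintains epithelial identity, had 9, PRLR, the prolactin receptor, had 8, and SPDEF, another epithelial ETS factor, had 4. Defining genes of the lineage were then looked up after their values had been seen. FOXA1, the forkhead pioneer factor, had 3, PGR, the progesterone receptor, had 4, and GATA3 and ESR1, the estrogen receptor, had 1 each. The member near ESR1 had a fold enrichment of 12.3, and 26 Ishikawa-only regions lay within the same distance of that gene. TFAP2B, GRHL1, MYB, EPCAM and TOX3 were among those with 0.

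Of 30 estrogen-induced genes, 23 (76.7%) had a member. RARA, a retinoic acid receptor, had 9, MYBL1, a MYB family factor, and SIAH2, a ubiquitin ligase, had 6 each, IGF1R, the receptor for insulin-like growth factor, had 5, and STC2, a secreted glycoprotein, and PGR had 4 each. GREB1, a cofactor of the estrogen receptor, had 2 and TFF1, a secreted mucosal peptide, had 3. MYC, ADCY9, RERG, PDZK1, AREG, TPD52L1 and PKIB had 0 within this distance. Of 26 genes of nuclear receptors and their cofactors, 11 (42.3%) had a member, led by VDR, the vitamin D receptor, with 14. Of 15 genes of AP-1 and related bZIP factors, 7 (46.7%) had one, among them ATF3 and MAFF with 4 each, while JUN, FOS, FOSB, FOSL2, JUNB and JUND had 0. All these member shares lay above the background of 24.1% of all protein-coding genes. For Ishikawa-only regions the shares were 53.3% of the estrogen-induced genes, 73.1% of the nuclear receptor genes and 80.0% of the AP-1 genes. Against their background of 54.0%, the first was close to it and the others above it. The whole T-47D list, which includes the members, lay near 86.7% of the estrogen-induced genes (background 32.8%). Its peaks at H3K4me3 lay near 33.3% (background 17.1%). An estrogen-induced share above background was thus not particular to members.

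Distance from annotated genes was not itself used by the rule. The rule did remove peaks at H3K4me3, which marks promoters. A greater distance of members than of those peaks was thus partly set by the rule and is a description. The median distance from the summit to the nearest protein-coding start site was 23.1 kb (quartiles 6.97 and 63.7 kb), with 31.5% of members within 10 kb and 4.97% within 1 kb. It was 13.8 kb for the shared distal peaks, 7.69 kb for the peaks at H3K4me3 and 23.8 kb for the Ishikawa-only regions. Introns held 57.3% of members, intergenic sequence 30.3%, noncoding exons 3.48%, UTRs 2.25% and coding exons 2.07%. A start site of some gene lay within 250 bp of 176 members (4.61%), among them the member at ALAS1, which encodes the first enzyme of heme synthesis. Counting every annotated gene, the median distance was 6.71 kb.

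The 12 members of highest fold enrichment lay nearest to IRF2BP2, B3GNTL1, ZNF184, YBEY, SPINK14, RFTN2, SCGB3A1, FAM53B, RBMS1, EDN1, ALAS1 and TBC1D14, at 14.9 to 12.4. The first, near IRF2BP2, a transcriptional corepressor, lay in intergenic sequence on chromosome 1 from 234774175 to 234774525, 28.4 kb from the start site, with a summit pileup of 47 tags. It was in the H3K4me1 E2 list at a fold enrichment of 7.85 and in no factor list. Of these 12, 7 overlapped no factor list. The member near SCGB3A1, a secretoglobin of secretory epithelia, spanned 688 bp on chromosome 5 from 180021673 to 180022360 and was in both JUN lists (5.89 under DMSO and 5.66 under E2) and both RNAPII E2 lists (37.6 and 15.4).

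Members were spread over many genes, and a few genes had many. They had 1897 nearest protein-coding genes, of which 1137 were nearest to 1 member and 34 to 10 or more. The 129 genes nearest to 5 or more held 1089 of the 3821 members. GSE1, a coiled-coil protein found with histone-deacetylase complexes, was nearest to 67 members, of which 66 lay within the gene, between 85180875 and 85707867 on chromosome 16. GRIK4, a kainate receptor subunit, and KCNMA1, the pore of the BK potassium channel, were nearest to 22 each, all within the genes. TBL1XR1, a subunit of the NCoR corepressor complex, was nearest to 18, and MYC, the E-box factor, to 17, at 110.0 to 690.0 kb from its start site. KLF6, a zinc-finger factor, had 14. OPA1, a GTPase of mitochondrial fusion, GRHL2, HES1, a repressor induced by Notch, and SERPINA1, the protease inhibitor alpha-1-antitrypsin, had 13 each, with ties ordered by summed −log10 p-value. Ishikawa-only regions were also nearest to GSE1 (31), TBL1XR1 (57) and MYC (31), but 0 were to KLF6 or SERPINA1.

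With members joined when at most 10 kb apart, 1848 (48.4%) fell in 682 clusters of 2 or more, and 331 (8.66%) in 48 clusters of 5 or more. The largest cluster held 14 members over 36.1 kb of GRIK4. The next held 12 over 20.2 kb of GSE1. These clusters differed in RNAPII, which overlapped 0, 0, 1 and 0 members at GRIK4 and 4, 0, 8 and 6 at GSE1 in DMSO replicates 1 and 2 and E2 replicates 1 and 2. JUN overlapped 2 and 1 of the GRIK4 members under DMSO and E2, and 11 and 9 of those at GSE1.

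Members were spread unevenly over the chromosomes. Their number per 10 Mb ran from 1.67 on chromosome X, 1.82 on 13, 1.99 on 4, 2.69 on 18 and 4.15 on 2 to 25.5 on 16, 29.0 on 20, 29.7 on 11 and 38.9 on 17. Ishikawa-only regions numbered 29.4 on 13, 45.6 on 4, 60.1 on 18, 55.6 on 2 and 2.25 on X, and 55.1, 58.9 and 62.7 on 16, 20 and 11. Chromosome 17 was the densest for both. Chromosomes 2, 4, 13 and 18 were thus poor in members without being as poor in Ishikawa-only regions, whereas X was poor in both. The median local background at members was lower on these sparse chromosomes than on the dense ones. It was 1.63 tags on 2, 1.97 on 4, 1.75 on 13, 1.60 on 18 and 1.63 on X, against 3.13 on 16, 3.01 on 20, 3.63 on 11 and 3.13 on 17. Between these extremes it was 1.63 to 2.26 tags on 6, 19 and 22, at 7.25 to 7.6 members per 10 Mb. It was 3.01 on 7 at 9.11, 2.26 on 15 at 10.6 and 2.37 on 21 at 13.7. On 3 it was 3.77 at 17.9, and on 10 it was 3.13 at 19.1. The part of the background in the densities was not tested.

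**Figure D2:**
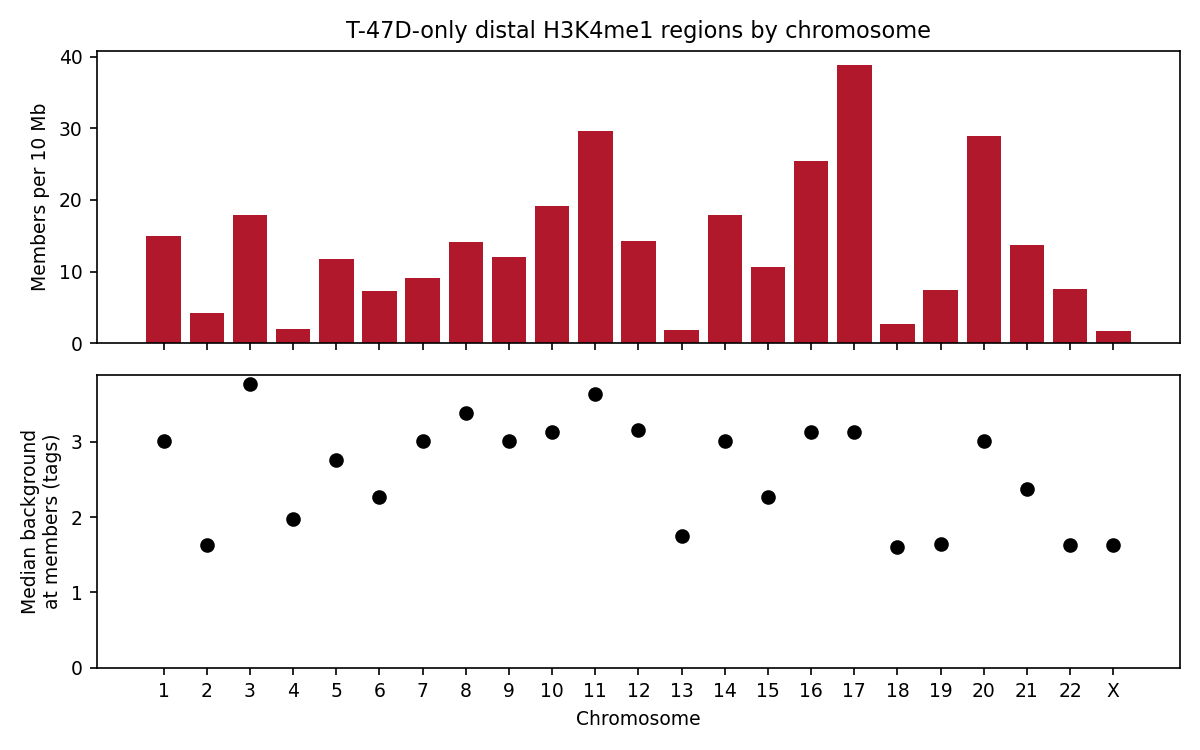
Members per 10 Mb of each chromosome (upper bars) and the median local background at members in tags (lower points). Chromosomes 2, 4, 13, 18 and X hold at most 4.15 members per 10 Mb at backgrounds of 1.60 to 1.97 tags, and chromosome 17 holds 38.9 at 3.13 tags.

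Most members were not in the T-47D H3K4me1 E2 list, a single library of 1959 peaks against 6406 under DMSO. So short a list limits what can be found again, and absence from it does not show a loss of the mark. The E2 list overlapped 689 members, 18% (95% CI 16.8 to 19.3), and 21.5% of all 6406 DMSO peaks. The share was 21.9% for shared distal peaks and 28.8% for peaks at H3K4me3. The E2 peaks at members had a median fold enrichment of 5.92. Members found again had a median fold enrichment of 7.36 in the DMSO list and a median width of 293 bp, against 6.98 and 213 bp for the others. Among members at or above the median fold enrichment 20.9% were found again, and below it 15.0%. H3K27me3, the Polycomb mark, overlapped 37 members (0.968%, background 2.53%) under DMSO and 0 of 3821 under E2 (background 0.0156%), which allows a share of up to 0.0785%, but the E2 list held only 99 peaks.

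A T-47D list of some factor overlapped 1151 members, 30.1% (95% CI 28.7 to 31.6, background 42.1%). Without the JUN lists the share was 26.0%. The other 2670 members (69.9%) were in no factor list. Nearly all overlaps came from RNAPII and JUN, since any other factor overlapped 13 members, 0.34% (background 0.578%). MYC overlapped 1 member under DMSO (background 0.0624%) and 7 under E2 (0.343%). LSD1 overlapped 0 and 4 (0.0% and 0.125%), and MAX 0 and 2 (0.0156% and 0.0781%). RARA overlapped 0 in both lists (0.0156% each), TAF1 0 in both (0.0468% and 0.0624%) and SIN3A 0 in both (0.0% and 0.0156%). The backgrounds were themselves so low that counts near 0 do not set the members apart. A count of 0 allows a share of up to 0.0785%. Backgrounds here, and for RNAPII and JUN below, include the peaks at H3K4me3 that the rule removed. Of those peaks 68.2% were in a factor list, so member shares below these backgrounds are a description.

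**Figure D3:**
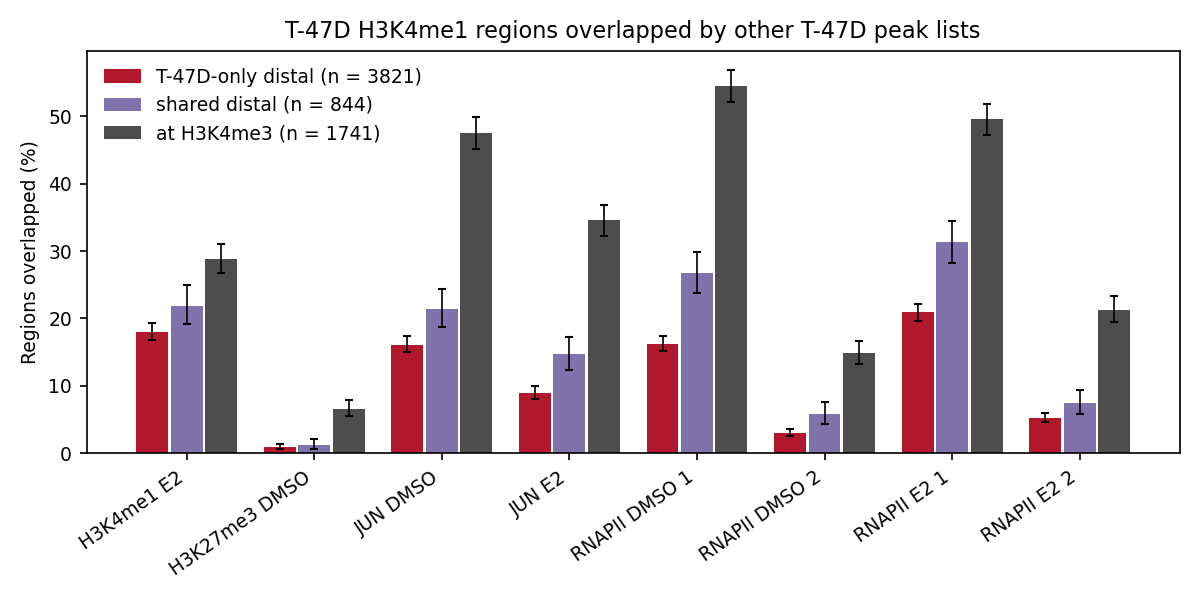
Share of T-47D H3K4me1 DMSO peaks overlapped by at least 1 bp by 8 T-47D peak lists, for members (red), shared distal peaks (purple) and peaks at H3K4me3 (grey), with exact 95% binomial intervals that cover counting error only. Members are lowest in each of these 8 lists, for example 16.2% against 26.8% and 54.5% in RNAPII DMSO replicate 1.

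The RNAPII share of members lay below that of the whole T-47D list in each of the 4 libraries. It lay at 620 members (16.2%, background 28.0%) in DMSO replicate 1, 116 (3.04%, background 6.62%) in DMSO replicate 2, 797 (20.9%, background 30.0%) in E2 replicate 1 and 201 (5.26%, background 9.91%) in E2 replicate 2. Both libraries numbered 1 were high and both numbered 2 were low. The whole list includes the peaks at H3K4me3 that the rule removed, which gave 54.5%, 14.9%, 49.6% and 21.3% in this order. Shares below the whole list were thus partly set by the rule and are a description. The shared distal peaks gave 26.8%, 5.81%, 31.3% and 7.46% in the same order. Members were lower in 4 of 4 libraries, (mean difference −6.49 ± 4.62 points, SD, n = 4 libraries, exact two-sided sign-flip permutation test, p = 0.125, the smallest p that 4 libraries allow).

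The RNAPII shares of the treatments overlapped. The share was 9.63% ± 9.33 under DMSO and 13.1% ± 11 under E2 (SD, n = 2 libraries each), a difference of 3.43 points (exact two-sided permutation test over 6 assignments, p = 0.667, where 0.333 is the smallest p possible). The difference lay within the spread of the libraries of either treatment, in each of which number 1 was above number 2. Without DMSO replicate 2 the difference was −3.17 points and without E2 replicate 1 it was −4.37 points, but either leaves unequal numbers of libraries numbered 1 and 2 in the treatments. The shared distal peaks differed by 3.08 points and those at H3K4me3 by 0.747 points.

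RNAPII was present in all 4 libraries at 71 members, 1.86% (background 4.62%), and in any at 994, 26.0% (background 37.7%). It was in both E2 lists and neither DMSO list at 42 members, 1.1% (background 1.05%), and in both DMSO lists and neither E2 list at 6, 0.157% (background 0.281%). The share of E2-only members was near the background. Of the 42, 22 (52.4%) were in the JUN DMSO list and 8 (19.0%) in the JUN E2 list, and of the 6, 3 and 1 were. Over all members these lists gave 16.1% and 8.95%, and over all 6406 peaks 25.4% and 16.7%. All members include those without RNAPII. JUN was also frequent at members with RNAPII in general. It was in either JUN list at 542 of the 994 members with RNAPII in any library, and at 438 of the 797 in E2 replicate 1. The JUN share was thus not shown to be particular to E2-only members.

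The strongest of the E2-only members by the lower of their RNAPII fold enrichments lay in GREB1, on chromosome 2 from 11701879 to 11702050, at 23.8 in E2 replicate 1 and 16.5 in E2 replicate 2. Its own H3K4me1 fold enrichment was 8.97. The member near SCGB3A1 followed. Another lay in intergenic sequence 142.0 kb from TRPC6, a calcium-permeable channel, at 14.7 and 16.0. A further member lay 786.0 kb from HS6ST1, a heparan sulfate sulfotransferase, at 29.5 and 14.3. The fifth lay 26.3 kb from SIAH2, in a noncoding exon, at 13.7 and 13.3. The GREB1 and SIAH2 windows printed above are those of these members. Of the 5, the members near SCGB3A1 and HS6ST1 also overlapped JUN under DMSO, at 5.89 and 14.9.

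Among the members found with RNAPII under DMSO only, that near DDR1, a collagen receptor kinase, had RNAPII fold enrichments of 20.4 and 18.4, and that near PLEKHA6, an adaptor of epithelial junctions, 24.7 and 15.7. The members near ZNF366, a corepressor of the estrogen receptor, SEPTIN9, a cytoskeletal GTPase, and SMYD2, a lysine methyltransferase, had lower values of 10.4, 8.41 and 7.01.

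RNAPII at members differed between named genes. At the 8 members within 100 kb of PRLR it was found at 8, 7, 8 and 7 in DMSO replicates 1 and 2 and E2 replicates 1 and 2. Near RARA, with 9 members, the numbers were 6, 0, 7 and 6. Near PGR, with 4, they were 1, 2, 4 and 4, near SIAH2, with 6, they were 0, 0, 4 and 1, and near GREB1, with 2, they were 0, 0, 2 and 1. At PGR, SIAH2 and GREB1 no DMSO library exceeded an E2 library, but these genes were picked after their values were seen. Near EHF, with 12 members, they were 1, 0, 1 and 0. After their values were seen, PREX1, a Rac exchange factor with 13 members (12, 5, 9 and 4), and DLG5, a polarity scaffold with 13 (1, 0, 12 and 1), were added, the second being nearly all from E2 replicate 1.

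JUN overlapped 617 members under DMSO, 16.1% (95% CI 15.0 to 17.4, background 25.4%), and 342 under E2, 8.95% (8.06 to 9.90, background 16.7%). Shared distal peaks gave 21.4% and 14.7%, peaks at H3K4me3 47.5% and 34.6%, and Ishikawa-only regions 4.96% and 3.02%. Both lists held JUN at 260 members (6.80%, background 13.7%), the DMSO list alone at 357 (9.34%, background 11.7%) and the E2 list alone at 82 (2.15%, background 2.98%). The ratio of E2 to DMSO was 0.554 at members, 0.867 over the whole lists and 0.735 over JUN peaks away from H3K4me3. Counted as for members, JUN went from 820 to 499 Ishikawa-only regions and from 181 to 124 shared distal peaks. Over peaks at H3K4me3 it went from 827 to 602, and over all 6406 peaks from 1625 to 1068. A lower count under E2 was thus not particular to members. With 1 library per treatment these ratios have no replicate check.

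JUN and RNAPII met at 542 members, 14.2% (background 24.0%). Of the 699 members with JUN in either list (18.3%, background 28.3%), 60.4%, 9.87%, 62.7% and 20.3% overlapped RNAPII in DMSO replicates 1 and 2 and E2 replicates 1 and 2. Of the 3122 without JUN the shares were 6.34%, 1.51%, 11.5% and 1.89%. Members with JUN were higher in 4 of 4 libraries. Members with JUN were wider (median 255 against 217 bp) with a similar H3K4me1 fold enrichment (median 6.85 against 7.11). RNAPII in any library was at 542 of the 699 members with JUN. It was at 180 of 211 shared distal peaks with JUN and 818 of 906 peaks at H3K4me3 with JUN. The overlap was thus not particular to members. Over the whole JUN DMSO list, 92.6% of peaks overlapped RNAPII, and 85.2% of those away from H3K4me3 did.

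**Figure D4:**
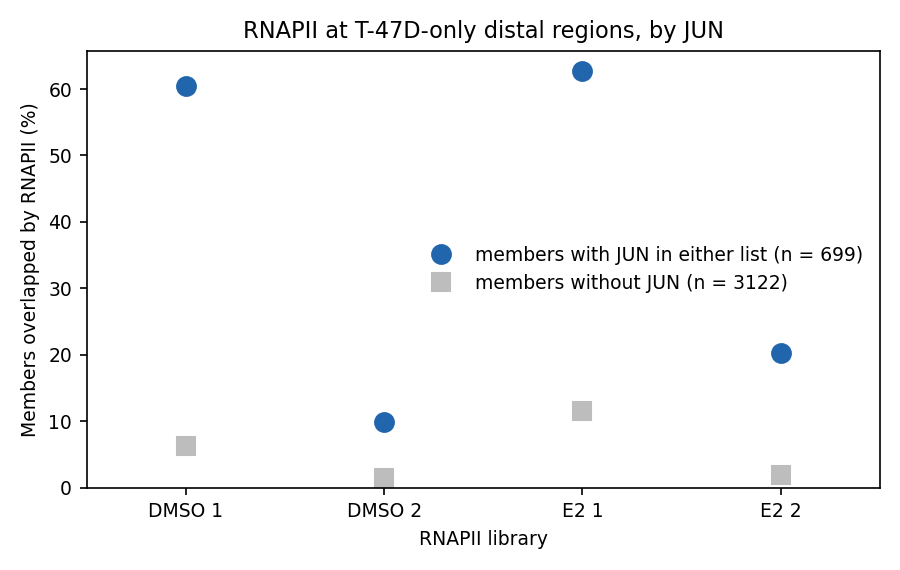
Share of members overlapped by RNAPII in each of the 4 libraries, for members with JUN in either list (circles) and without JUN (squares). The circles lie at 9.87% to 62.7% and the squares at 1.51% to 11.5%, with both groups lower in the libraries numbered 2.

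Windows of members with JUN differed in motif letters from those without. TFAP2 letters were in 23.2% of the former and 11% of the latter, AP-1 in 6.29% and 9.61%, and GATA in 12% and 20.2%. GC content moved with this split, at 56.6% and 51.1%, and its part was not tested. Around the JUN summits themselves, AP-1 letters were in 13.3% of 581 JUN DMSO peaks at members and 7.94% of 315 JUN E2 peaks at members, and TFAP2 letters in 30.5% and 41.6%. Over all JUN DMSO and E2 peaks the shares were 7.0% and 4.95% for AP-1 and 30.7% and 37.1% for TFAP2. GC content was 57.2% and 61.8% around those at members and 62.4% and 66.2% over all. A high TFAP2 share was thus not particular to JUN peaks at members.

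**Figure D5:**
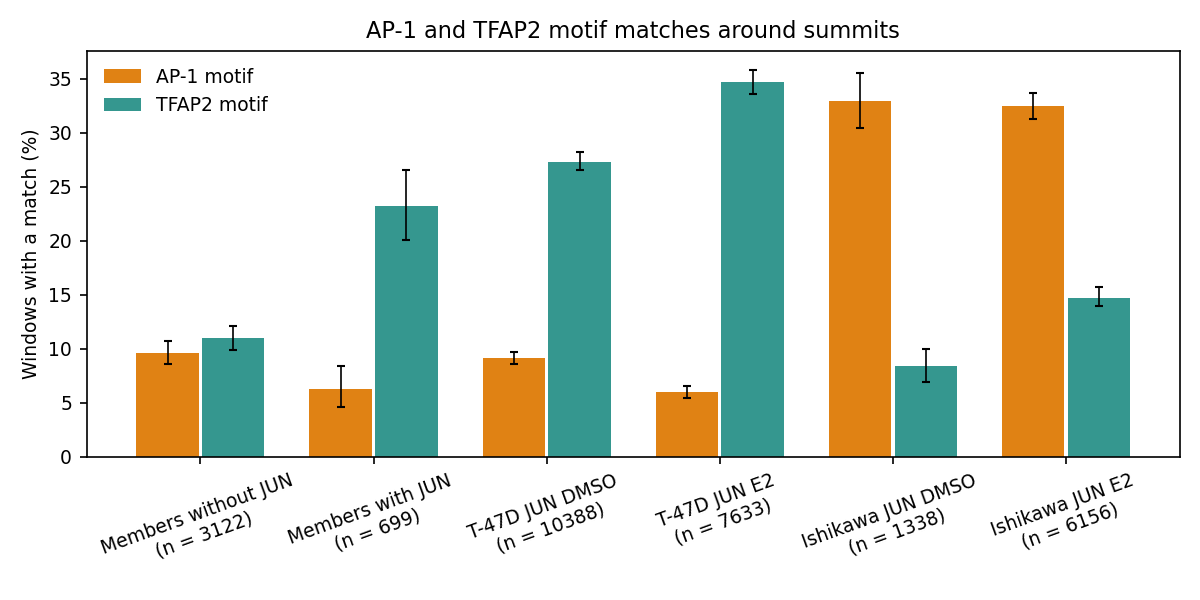
Share of 300-base windows with an AP-1 (orange) or TFAP2 (green) match, at H3K4me1 summits of members without and with JUN and at JUN summits away from H3K4me3 in each line and treatment, with exact 95% intervals. AP-1 lies at 5.96% to 9.61% in the T-47D windows and at 32.5% to 32.9% in Ishikawa.

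The members with the strongest JUN, by the lower fold enrichment of both lists, lay nearest to ISYNA1, E4F1, CNP, IP6K3 and FOXN1. The ISYNA1 member, in an intron of ELL, which encodes an elongation factor, had JUN at 36.2 under DMSO and 36.4 under E2 and RNAPII at 41.0 in E2 replicate 1 only. The E4F1 member, in an intron of that zinc-finger factor gene, had 34.1 and 40.9, the CNP member, in an exon of a myelin enzyme gene, 34.4 and 30.6, the IP6K3 member, in an inositol phosphate kinase gene, 30.0 and 38.2, and the FOXN1 member, in a forkhead factor gene, 29.8 and 29.7. All but the IP6K3 member lay within 533 bp of a peak that would have excluded them. The eighth member in this order, picked after its values were seen, lay 10.4 kb from TFF1, in an intron of TMPRSS3 on chromosome 21 from 43796888 to 43797159, with JUN at 28.0 and 31.5 and RNAPII at 29.9 in E2 replicate 1 only.

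JUN was frequent at GSE1. Of its 67 members, 41 overlapped JUN under DMSO and 33 under E2, 27 the H3K4me1 E2 list, and 27, 0, 42 and 18 RNAPII in DMSO replicates 1 and 2 and E2 replicates 1 and 2. By contrast 4 and 2 of the 22 GRIK4 members and 0 and 0 of the 17 MYC members had JUN. Leaving out the GSE1 members gave JUN shares of 15.3% and 8.23% over the remainder. By chromosome, JUN DMSO overlapped most members on 16 (33.5%), 19 (27.3%), 17 (25.9%) and 22 (25.6%). It overlapped fewest on 18 (0.0% of 21), 13 (4.76% of 21), 2 (8.91%) and 12 (9.95%). The JUN DMSO list itself held 197, 396, 278 and 168 peaks per 10 Mb on the former, in this order. On the latter it held 38.9, 33.6, 60.5 and 106. Shares by chromosome were not counted over all 6406 peaks.

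The shares of members with RNAPII and JUN varied with distance from genes. Within 10 kb of a protein-coding start site, RNAPII overlapped 24.5%, 4.16%, 28.4% and 7.57% of 1202 members in the 4 libraries, and beyond 100 kb 9.43%, 1.63%, 12.2% and 3.25% of 615. JUN overlapped 20.7% and 13.7% of the former under DMSO and E2, and 13.3% and 5.37% of the latter. The H3K4me1 E2 list overlapped 16.8% within 10 kb, 18.4% from 10 to 100 kb and 19.2% beyond 100 kb, small differences that were not tested. Shares by distance were not counted over all 6406 peaks. None of these patterns was thus shown to be particular to members.

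At least 3 factor targets met at 11 members, 0.288% (background 0.484%), each of them with JUN and RNAPII. Of these, 3 lay in GSE1. The widest member, on chromosome 16 from 85410063 to 85411567, carried JUN at 18.7 and 23.7, MYC under E2 at 5.46, RNAPII at 20.7, 8.33 and 6.73 (DMSO replicate 1 and both E2 replicates), H3K4me1 under E2 at 5.78 and H3K27me3 under DMSO at 9.61. The others with the highest H3K4me1 fold enrichment lay near CHGA, the neuroendocrine granule protein, with MYC under E2 at 9.46, near CCR10, a chemokine receptor, with MAX under E2 at 11.4, and near CCT6B, a chaperonin subunit, and TNS3, a focal adhesion protein, with LSD1 under E2 at 9.06 and 10.3.

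Ishikawa factors were rare at members. JUN overlapped 4 members under DMSO and 33 under E2 (0.105% and 0.864%, backgrounds 2.06% and 8.27%), LSD1 5 and 24 (backgrounds 3.81% and 8.45%), TAF1 6 and 3 (6.70% and 5.03%), and SIN3A 8 in Stripped Media and 9 in Full Media (5.35% and 1.83%). RARA overlapped 0 and 2 (0.0% and 0.843%), MAX 0 and 0 (0.781% and 0.453%) and H3K27me3 0 and 1 (1.19% and 0.968%). The rule itself removed peaks with Ishikawa H3K4me1 or H3K4me3, where these factors lie, so the low shares are a description.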

How the data were processed

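Peak lists of 45 of 49 samples were used, 24 from T-47D and 21 from Ishikawa. For the remaining 4, the inputs, no list was used here. Groups came from the sample labels. Per the labels, the authors aligned reads with Bowtie 1.1.2 to hg19 (GRCh37) and called peaks in each library with MACS2 2.1.0.20140616. For each peak they deposited a fold enrichment (a ratio), a −log10 p-value, a −log10 q-value and a score of 10 times the −log10 p-value. The smallest −log10 p-value of the T-47D H3K4me1 DMSO list was 10.0. Lists state no depth, and their lengths depend on depth and enrichment.

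Overlaps of at least 1 bp were counted in Python 3.11.15 (numpy 2.4.6, pandas 2.3.3, scipy 1.17.1). Genes and start sites came from GENCODE release 44 on GRCh37, and sequences from the GRCh37 genome through pysam 0.24.0. Summit pileups and local backgrounds were solved from fold enrichment and p-value. RNAPII shares were compared by exact permutation, and the code was tested on simulated data. The label replicates are not stated to be separate cultures, so p-values measure only the spread between these libraries.

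Named were the 12 members of highest fold enrichment, the 10 protein-coding genes nearest to most members, up to 5 genes of a list, 5 members with most factors, 5 with RNAPII under 1 treatment only and 5 with the strongest JUN. A few listed genes are not reported here. The members, lists and rules were chosen with earlier results of these data known. Alternatives varied the overlap, the peaks and members kept, list lengths, the libraries and the annotation.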

Additional observations from a re-analysis of the deposited data

Results flagged for a closer look

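At members, JUN peaks went from 617 under DMSO to 342 under E2 in T-47D, a change of −275, and from 4 to 33 in Ishikawa, a change of 29. The changes ran in opposite directions and differ by 304 members. Over the whole lists the ratio of E2 to DMSO was 0.867 in T-47D and 4.87 in Ishikawa. H3K27me3 went from 37 to 0 members in T-47D, a change of −37, and from 0 to 1 in Ishikawa, a difference of 38, with whole-list ratios of 0.0157 and 3.19. Each count comes from a single library, and for neither target was the difference between lines tested.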

How the results depend on the processing

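The number of members ran from 2681, when any excluding peak within 1000 bp also excluded, to 4912, when exclusion needed a reciprocal overlap of 50%. A reciprocal overlap of 50% with the other lists moved the shares most, to 4.37% (JUN, DMSO), 1.96% (JUN, E2), 13.7% (H3K4me1 E2) and 11.9% (any factor). Members at or above the median fold enrichment gave 14.9%, 7.38%, 20.9% and 25.8%, and members at least 1000 bp from any excluding peak gave 7.39% for JUN under E2, 15.9% for H3K4me1 E2 and 28.2% for any factor. Overlapping peaks with a −log10 q-value of at least 10 gave 14.9% for H3K4me1 E2, and shortening the JUN DMSO list to the length of the E2 list gave 14.3%. After the data were seen, the JUN lists were left out (any factor, 26.0%), as were the GSE1 members. The median distance was 6.71 kb with all annotated genes. The causes of these moves were not tested. Leaving out 1 library at a time, the RNAPII difference between E2 and DMSO ran from −4.37 to 11.2 points, reversing without DMSO replicate 2 (−3.17) and without E2 replicate 1 (−4.37), and the difference between members and shared distal peaks ran from −7.91 to −5.13 points. That difference shrank from −6.49 to −1.29 points with a reciprocal overlap of 50%. With RNAPII lists of equal length the E2 difference was 1.02 points. With the replicate number as a block it was 3.43 points (exact sign-flip permutation over 2 pairs, p = 0.5, the smallest possible), 4.63 for number 1 and 2.22 for number 2, so E2 was higher within both. The labels do not say what a number shares, and 2 pairs cannot show whether numbers pair the libraries. No test could pass its threshold in this design, so the p-values say nothing of stability. Depth is not stated for the lists, which limits what absence from a list shows.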
